A study of Mus musculus with 8 samples.

Results

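Cultured mouse aortic smooth muscle cells given a Myocd adenovirus were compared with the same kind of cells given an empty adenovirus. The comparison rests on 4 of the 8 arrays of the study, 2 for each virus, and its members were taken from the sample titles. All 4 samples were wild-type cells at passage 3, kept in DMEM/F12 with 20% serum and moved to 10% serum for the experiment. Both viruses were used at a multiplicity of infection of 100, and RNA was taken after 3 days. The other 4 arrays held 2 samples of Srf knockout cells with the empty virus and 1 sample each of freshly isolated wild-type aorta and liver. The labels do not give the age or strain of the animals, nor the promoter of the Myocd virus, nor whether the 2 replicates of a group were grown from separate animals. The p-values therefore measure only how far these samples differ among themselves, which may be technical spread. The empty arrays lay on slide 1 and the Myocd arrays on slide 2, so an effect of Myocd and an effect of the slide cannot be told apart in any value of this comparison.

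Myocd encodes myocardin, a coactivator that is made in smooth muscle and heart. Myocardin does not bind DNA itself. It binds serum response factor, the product of Srf, which sits on a short AT-rich sequence called the CArG box, and together they switch on genes for the contractile apparatus, such as smooth muscle actin, calponin and smooth muscle myosin. Smooth muscle cells in culture tend to lose part of this contractile programme, and supplied myocardin is known to bring much of it back.

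Of the 60915 probes outside the control classes, 15 could be tied to a gene through a RefSeq accession, and every one of these 15 accessions matched a gene symbol. All other probes carried only the maker's identifier. None of the 15 was Srf, Myocd or a smooth muscle contractile gene, so neither the virus nor the contractile programme could be checked in these samples. Of 8 lists of cell type markers, smooth muscle among them, 0 held an identified gene, so the labelled cell type was not checked either. Of 13 pathway lists, 3 held an identified gene. In RNA from whole cultures, fewer cells of a type and less RNA per cell cannot be told apart.

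Promoter windows of 250 bases before and 50 bases after the start were taken from RefSeq (GRCm38.p6) for 13 of the 15 genes, as 14 windows. Actb and Hsp90ab1 had no window, so nothing below on motifs covers these 2 genes. They were searched on both strands for the CArG box, for the TATA box spelled TATAAA, for the CCAAT box by those letters and for the GC box spelled GGGCGG. The TATAAA and CCAAT letters can lie inside a CArG box, and GGGCGG can share letters with its ends. Of these 14 windows, 0 held a CArG box, against 535 of all 32851 mouse windows of this length (1.63%). TATAAA was in 13.6% of all windows, CCAAT in 37.4% and GGGCGG in 35.7%. A match is a description of the letters and not a site. The windows of Gk and Ldhal6b, which rose with Myocd, and of G6pd2, which fell furthest among the 15, are printed here with the Srf window, which shows what a CArG box looks like. Capitals mark every match to the searched motifs. The Srf window (chr17:46556113-46556412, minus strand) held 2 CArG boxes, starting 82 and 62 bases before the start, and the Gk window (chrX:85776770-85777069, minus strand) held 3 matches to GGGCGG. The Ldhal6b window (chr17:5418718-5419017, minus strand) held 3 matches to TATAAA, 2 of them overlapping on opposite strands, and 1 to CCAAT. The G6pd2 window (chr5:61808593-61808892, plus strand) held 0 matches to any of the searched motifs.
Srf: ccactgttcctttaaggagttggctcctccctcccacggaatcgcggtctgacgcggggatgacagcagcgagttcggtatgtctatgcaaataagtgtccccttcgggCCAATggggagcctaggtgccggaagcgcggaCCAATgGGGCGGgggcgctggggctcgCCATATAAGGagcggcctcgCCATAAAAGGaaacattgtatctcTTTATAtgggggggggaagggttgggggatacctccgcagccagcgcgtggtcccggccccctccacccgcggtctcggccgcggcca
Gk: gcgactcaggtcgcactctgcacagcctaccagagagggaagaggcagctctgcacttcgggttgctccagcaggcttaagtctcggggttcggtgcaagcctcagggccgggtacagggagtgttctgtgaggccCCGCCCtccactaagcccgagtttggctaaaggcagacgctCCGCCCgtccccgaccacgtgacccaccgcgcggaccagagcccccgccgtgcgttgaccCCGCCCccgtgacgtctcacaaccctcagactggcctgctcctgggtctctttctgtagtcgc
Ldhal6b: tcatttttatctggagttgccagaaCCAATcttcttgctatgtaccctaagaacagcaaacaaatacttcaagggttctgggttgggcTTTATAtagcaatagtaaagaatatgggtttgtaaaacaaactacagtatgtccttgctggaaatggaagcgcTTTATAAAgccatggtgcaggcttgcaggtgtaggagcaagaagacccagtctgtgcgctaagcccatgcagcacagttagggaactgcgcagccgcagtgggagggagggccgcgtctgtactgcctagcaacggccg
G6pd2: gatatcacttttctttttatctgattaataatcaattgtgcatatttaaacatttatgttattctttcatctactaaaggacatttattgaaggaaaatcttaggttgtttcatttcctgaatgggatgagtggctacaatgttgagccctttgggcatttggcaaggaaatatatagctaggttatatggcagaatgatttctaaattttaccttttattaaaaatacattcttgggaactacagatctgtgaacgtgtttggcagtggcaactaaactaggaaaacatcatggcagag

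Of the 15 identified genes, 2 rose with Myocd, 3 fell and 10 did not pass the test. A probe passed when limma's adjusted p, taken over all probes tested, was under 0.05. This is 33.3% of the identified genes, and 15.2% of all 44077 tested probes passed. Levels are log2 processed intensities minus the array's own 75th percentile, so a level of 0 is that percentile, and 1 unit is a doubling. Each gene was read from 20 spots per array, of which at least 15 were used for every gene, and all 15 were well above background on all 4 arrays. The spots of a gene on 1 array had SDs of 0.04 to 0.33. The largest SD between the 2 empty arrays was 0.41 and between the 2 Myocd arrays 0.13. Empty replicate 2 was above empty replicate 1 in 10 of the 15 genes. In 11 of the 15 genes (73.3%) the 2 groups did not overlap, and this held for 56.8% of all tested probes. Most of these genes are commonly used as references for expression, and the plot of the identified genes shows every array.

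**Figure D1:**
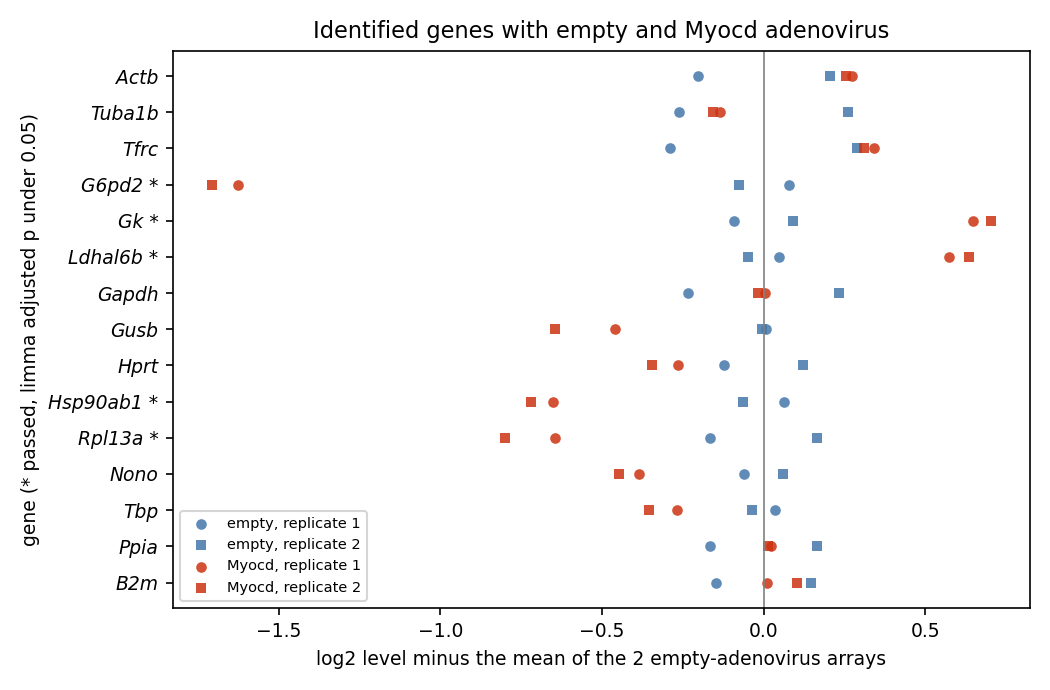
Level of each identified gene on each array, as its log2 level minus the mean of the 2 empty-adenovirus arrays (horizontal axis), for 15 genes (vertical axis). Circles are replicate 1 and squares replicate 2, blue for empty and red for Myocd adenovirus; G6pd2 stands apart on the left, with a mean of -1.67 log2 units, and Gk and Ldhal6b on the right.

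Among genes of metabolism and uptake, G6pd2 had the largest change. G6pd2 is an intronless autosomal copy of the gene for glucose-6-phosphate dehydrogenase, the first enzyme of the pentose phosphate pathway, and its probe may also read its X-linked parent. Its level was 4.22 and 4.06 on the empty arrays and 2.52 and 2.43 on the Myocd arrays. Both Myocd arrays lay far below both empty arrays, and the gap was more than 10 times the SD of either pair. The change was -1.67 on the log2 scale (SE 0.14, 95% interval -2.02 to -1.31, limma adjusted p = 0.00152), a 3.17-fold fall. It passed in 17 of 17 alternative analyses, with changes between -1.76 and -1.59. Leaving out either Srf knockout array is the same fit as using only the 4 arrays compared. These alternatives therefore repeat a single result, here and in the later counts of alternatives. G6pd2 stood at 5.06 and 4.95 in the Srf knockout arrays and at 2.25 in aorta.

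Gk encodes glycerol kinase, which phosphorylates glycerol for entry into lipid synthesis and glycolysis. It was dim in these cells, at -2.21 and -2.02 with the empty virus, and stood at -1.47 and -1.41 with Myocd. The groups did not overlap, and the change of 0.68 (SE 0.15, limma adjusted p = 0.0331) was a 1.60-fold rise. Gk was brighter in both tissues, at 0.71 in aorta and 1.73 in liver. Ldhal6b, a lactate dehydrogenase-like gene, was dimmer still, at -4.10 and -4.20 with the empty virus and -3.58 and -3.51 with Myocd. It rose 1.52-fold without overlap (log2 change 0.60, SE 0.14, limma adjusted p = 0.0420). Gk and Ldhal6b had the widest spread among the spots of an array of all 15 genes, with SDs of up to 0.33 for each. Negative-control spots, which read no mouse transcript, were themselves 0.26 log2 units higher on the Myocd arrays, and with normexp background correction the Ldhal6b change was 0.23 (limma adjusted p = 0.152) and that of Gk 0.45 (limma adjusted p = 0.0276).

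Tfrc, the receptor through which cells take up transferrin-bound iron, had levels of 6.07 and 6.65 on the empty arrays and 6.71 and 6.67 on the Myocd arrays. Only empty replicate 1 stood low, and the change of 0.33 (95% interval -0.19 to 0.85, limma adjusted p = 0.357) did not pass. Without empty replicate 2 it was 0.62 and passed (limma adjusted p = 0.0372). Gusb, the lysosomal beta-glucuronidase, was 5.52 and 5.51 with the empty virus and 5.05 and 4.87 with Myocd. Its groups did not overlap, and its change of -0.55 (95% interval -0.92 to -0.19) just missed the threshold (limma adjusted p = 0.0585). Gusb passed in 4 of 17 alternatives. Hprt, an enzyme of purine salvage, was 7.56 and 7.81 against 7.42 and 7.34, a change of -0.30 (limma adjusted p = 0.246). Gapdh, an enzyme of glycolysis, was 9.45 and 9.91 with the empty virus and 9.68 and 9.66 with Myocd. The Myocd arrays lay between the 2 empty arrays. The change was -0.01 with an interval of -0.48 to 0.47, and its sign differed from this in 5 of 17 alternatives.

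Among genes of protein and RNA handling, 2 of 6 fell and 0 rose, where 7.19% of all tested probes were lower and 7.99% higher. The median change of these 6 was -0.36, and that of all tested probes was -0.02. Hsp90ab1, the constitutive cytosolic chaperone of the HSP90 family, was 8.61 and 8.49 with the empty virus and 7.90 and 7.83 with Myocd. It fell 1.61-fold with no overlap (log2 change -0.69, SE 0.14, limma adjusted p = 0.0272). Rpl13a, a protein of the large ribosomal subunit, was 7.28 and 7.61 against 6.80 and 6.65. It fell 1.65-fold, also with no overlap (log2 change -0.72, SE 0.17, limma adjusted p = 0.0410). Nono, an RNA-binding protein of nuclear paraspeckles, was 6.67 and 6.80 against 6.35 and 6.29. Tbp, the TATA-binding protein of the general transcription machinery, was 3.17 and 3.10 against 2.86 and 2.78. For both, the Myocd arrays lay below the empty arrays, but the changes of -0.42 and -0.31 did not pass (limma adjusted p = 0.105 and 0.189). Ppia, the prolyl isomerase cyclophilin A, was 9.88 and 10.21 against 10.07 and 10.06. B2m, which encodes the beta-2-microglobulin subunit of MHC class I, was 8.16 and 8.45 against 8.32 and 8.41. Their groups overlapped, their changes were 0.02 and 0.06, and each changed sign in 2 of 17 alternatives.

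The cytoskeleton was represented by Actb and Tuba1b, and 0 of these 2 passed. Actb, cytoplasmic beta-actin and known to respond to serum response factor, was 9.19 and 9.60 with the empty virus and 9.67 and 9.65 with Myocd. The Myocd arrays lay just above the higher empty array, and the change of 0.26 had an interval of -0.18 to 0.71 (limma adjusted p = 0.387). Actb stood lower in the knockout arrays, at 9.01 and 8.84, and at 8.63 in aorta. Tuba1b, an alpha-tubulin, was 9.42 and 9.94 with the empty virus and 9.55 and 9.52 with Myocd, inside the range of the empty arrays. Its change of -0.15 had an interval of -0.64 to 0.34 and the other sign in 2 of 17 alternatives.

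Control spots for the ends of Gapdh and Pgk1, a glycolytic kinase, were outside the test and are given as values. The change was -0.0022 at the 3′ end and 0.09 at the 5′ end of Gapdh, and the groups overlapped at both. The 3′ end of Pgk1 was 8.52 and 8.61 with the empty virus and 8.80 and 8.75 with Myocd. Its 5′ end was 5.48 and 5.04 against 5.64 and 5.61. The groups did not overlap at either end of Pgk1, with changes of 0.21 and 0.36.

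Only the G6pd2 call was kept when single arrays were left out. The Srf knockout arrays enter this comparison through the estimate of the spread and through the choice of probes tested. With the same probes but only the 4 arrays compared, limma's adjusted p rose to 0.0753 in Hsp90ab1, 0.0946 in Rpl13a, 0.0823 in Gk and 0.0978 in Ldhal6b. Leaving out Myocd replicate 1 gave 0.122, 0.128, 0.139 and 0.160 in the same order (limma), and leaving out Myocd replicate 2 gave 0.164, 0.214, 0.181 and 0.215 (limma). The call of Gk was lost without empty replicate 1 as well (limma adjusted p = 0.0598). Those of Ldhal6b and Rpl13a were lost without empty replicate 2 (limma adjusted p = 0.0629 and 0.0634). The direction of these 4 changes was the same in all 17 alternatives.

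Across the whole array, 3520 probes were higher with Myocd (7.99% of those tested) and 3171 were lower (7.19%). With scaling to the array median in place of the 75th percentile, 2926 were higher and 3970 lower, so the larger side depended on the scaling. The total of 6691 became 3910 when either knockout array was left out, 2545 without the first Myocd array and 2153 without the second. Without empty replicate 1 or 2 it was 7417 or 9211. The groups did not overlap in 6680 of the 6691, against 56.8% of all tested probes. With 2 arrays per group a probe can hardly pass otherwise, so this adds no support to the calls.

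The rises reached further than the falls. Of the probes that were higher, 1228 changed by less than 2-fold, 1463 by 2- to 4-fold, 664 by 4- to 16-fold and 165 by 16-fold or more. Of those that were lower, 1722 changed by less than 2-fold, 1267 by 2- to 4-fold, 179 by 4- to 16-fold and 3 by 16-fold or more. At least 4-fold apart were therefore 829 rises (1.88% of tested probes) and 182 falls (0.413%). With normexp background correction these counts were 356 and 50, so the number of large changes depended on how the background was treated, while rises stayed the more numerous. Of the 38585 probes well above background on all 4 arrays, 500 were higher and 102 lower by at least 4-fold.

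**Figure D2:**
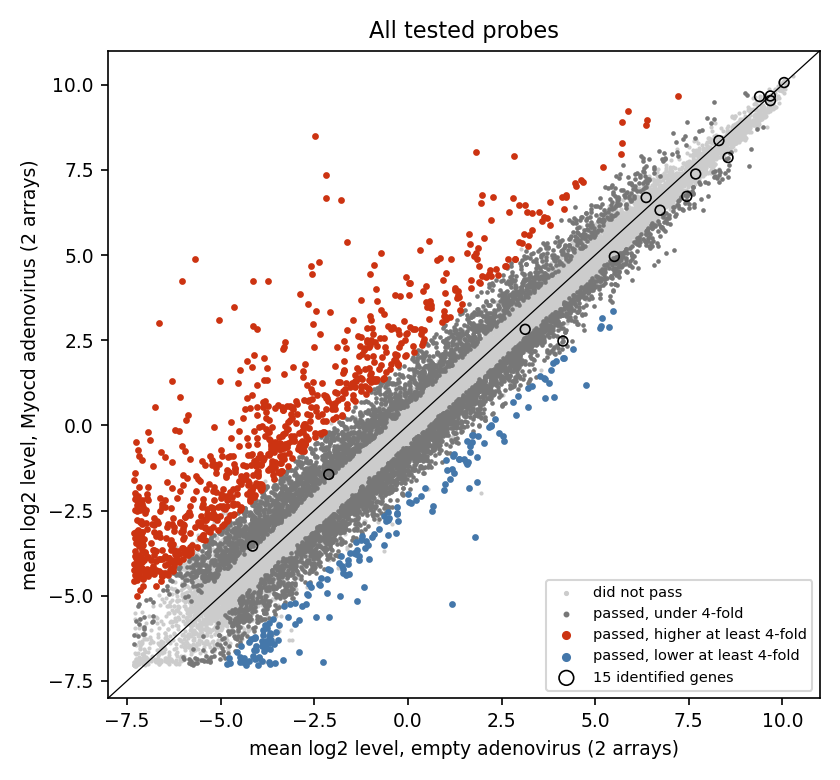
Mean log2 level of each tested probe with Myocd adenovirus (vertical axis) against that with empty adenovirus (horizontal axis), 2 arrays each, with the line of equality. Red and blue points passed and changed at least 4-fold, 829 higher and 182 lower; dark grey points passed with a smaller change, and open circles are the 15 identified genes.

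Among probes measured on all 4 arrays, the largest rise was that of ASMM10P026145. Its level was -2.69 and -2.29 with the empty virus and 8.51 and 8.48 with Myocd, which moved it from well below the 75th percentile to among the brightest probes. The change was 10.99 (SE 0.18, limma adjusted p = 2.49e-05), and this probe stood at -2.56 and -2.44 in knockout cells and -3.81 in aorta. ASMM10P014268 followed, from -2.18 on both empty arrays to 7.34 and 7.36 (log2 change 9.53). Aorta was at -1.11 and liver at -0.84 for it. Both probes were thus far brighter in Myocd cultures than in any other sample of the study. The files do not pair them with a gene.

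The largest falls were smaller. ASMM10P041157 was 1.31 and 2.26 with the empty virus and -2.69 and -3.85 with Myocd, a change of -5.05 (SE 0.51, limma adjusted p = 0.0027). Its replicates differed by about 1 unit in both groups, and over 18 alternatives the change ran from -5.63 to -3.92. It was bright in aorta at 4.51 and in liver at 6.27. ASMM10P052274 was tighter, at 4.64 and 4.87 against 1.1 and 1.24, a change of -3.58 (SE 0.15). It was 4.97 and 4.92 in knockout cells and 5.08 in aorta, so the Myocd cultures were the ones that stood apart. All 4 of these probes passed in 18 of 18 alternatives.

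The share of probes that passed varied with their level. With probes sorted by the mean of the 4 arrays, it was highest at levels of 2 to 4, where 9.49% were higher and 11.1% lower. It was lower among the brightest probes, at levels over 6, with 5.77% higher and 5.08% lower. Among the dimmest, under -4, 7.69% were higher and 5.28% lower, and at least 4-fold changes were 3.30% and 0.890%. Sorting by the empty arrays alone gave 12.6% higher and 2.88% lower under -4, and this order uses values that also enter the change. At levels over 6, empty replicate 2 lay 0.37 above empty replicate 1 in the median probe, and the Myocd replicates differed by -0.05.

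**Figure D3:**
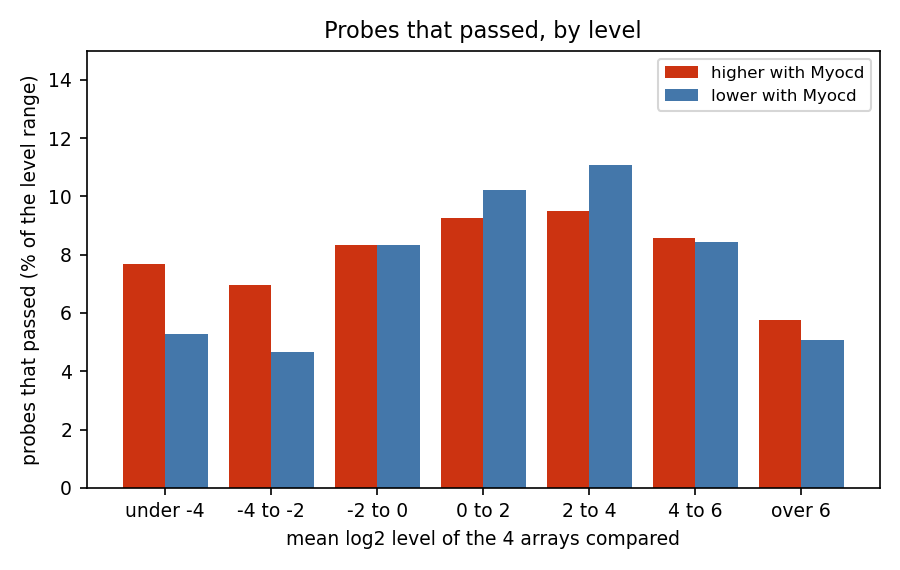
Share of tested probes that passed as higher (red) or lower (blue) with Myocd adenovirus (vertical axis, percent) in ranges of the mean log2 level over the 4 arrays compared (horizontal axis). The shares peak at levels of 2 to 4, at 9.49% higher and 11.1% lower, and are below this at both ends.

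Some probes were read only in 1 of the 2 conditions. Of all tested probes, 524 were well above background on both Myocd arrays and neither empty array, and 891 the other way round. Among the 524, 420 passed as higher with Myocd, and among the 891, 276 passed as lower. Each kind could be tested without being read in the other condition, so these counts follow in part from the filter. The 420 were not well above background on either empty array and were so on both Myocd arrays. A fold for these is a lower bound, set against the lowest signal that was well above background on each empty array. The median bound was at least 2.39-fold, 115 of the 420 were at least 4-fold higher, 22 at least 16-fold and 6 at least 64-fold, with a highest bound of at least 936-fold. For the 276, the median bound was at least 1.56-fold lower, 7 were at least 4-fold lower, and the highest bound was at least 10.2-fold. So there were more probes read only with the empty virus among all tested, and more read only with Myocd among those that passed. Aorta was well above background for 46.4% of the 420 and 41.3% of the 276, and liver for 39.5% and 34.1%. Of all tested probes with a value in both tissues, aorta was well above background for 89.8% and liver for 79.1%. Both sets were read less often in these tissues than tested probes at large. They were selected as unread in 1 group and so are dim, and no probes of like level were compared. The lower shares therefore follow in part from the selection. The lowest signal that counted as above background was 0.27 log2 units higher on the Myocd arrays than on the empty arrays.

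Probes for long intergenic RNAs allowed a look at strands. Their identifiers carry a plus or minus sign, taken here as the strand, and 876 numbers had a probe for each sign, of which 163 had both probes tested. In 22 of the 163, 1 of the 2 probes passed, 18 higher and 4 lower, and 0 pairs passed on both. This is 6.75% of the probes in these pairs, against 15.2% of all tested probes. At this share few pairs would pass on both even if the strands were unrelated, so the 0 cannot show that strands differ. By sign, 13 plus and 9 minus probes passed. Many of these were not well above background on either array of the group where they were lower, so they leaned on the group where they were higher. With only probes above background on all 6 cultured arrays, 6 pairs had a passing probe. The probes that passed had changes of 0.64 to 6.08 in size, with a median of 1.13. For those unread in 1 group these sizes use values near the floor, and a lower bound can be much smaller. The largest, 6.08, had a bound of 3.98, and a change of 3.72 had a bound of 1.56. The partners of the 22 probes that passed had a median of 0.16 and at most 1.02, and 1 of these 22 partners had an unadjusted p under 0.05 in limma. The partners are the probes that did not pass, so this contrast follows in part from the selection. The number of pairs with both probes passing was 4 without empty replicate 1, 2 without empty replicate 2 and 1 without Myocd replicate 1. The number with any passing probe was 39 without empty replicate 2, 11 without either knockout array and 9 without Myocd replicate 2.

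The pair with the largest change was singled out after its values were seen. Its minus-strand probe was at -7.19 and -7.01 on the empty arrays, at the floor of the scale, and at -1.0 and -1.03 on the Myocd arrays. It was at least 15.8-fold higher with Myocd (limma adjusted p = 4.99e-05), and was above background in aorta at -2.41. With normexp, whose offset narrows the changes of dim probes, its log2 change was 2.19 (limma adjusted p = 5.39e-05), below that bound. Among the cultured groups it was read with Myocd alone and met the filter through that group. Its plus-strand partner was 1.09 and 1.66 with the empty virus and 1.14 and 1.68 with Myocd, a change of 0.03 (limma adjusted p = 0.948). So 1 strand of this number went from unread to clearly read while the other showed replicates further apart than groups. Across the 163 pairs, the correlation of the 2 strands' changes was -0.08 and that of their empty levels was 0.04, both across pairs that share the same 4 arrays, and 81 pairs had changes of the same sign.

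**Figure D4:**
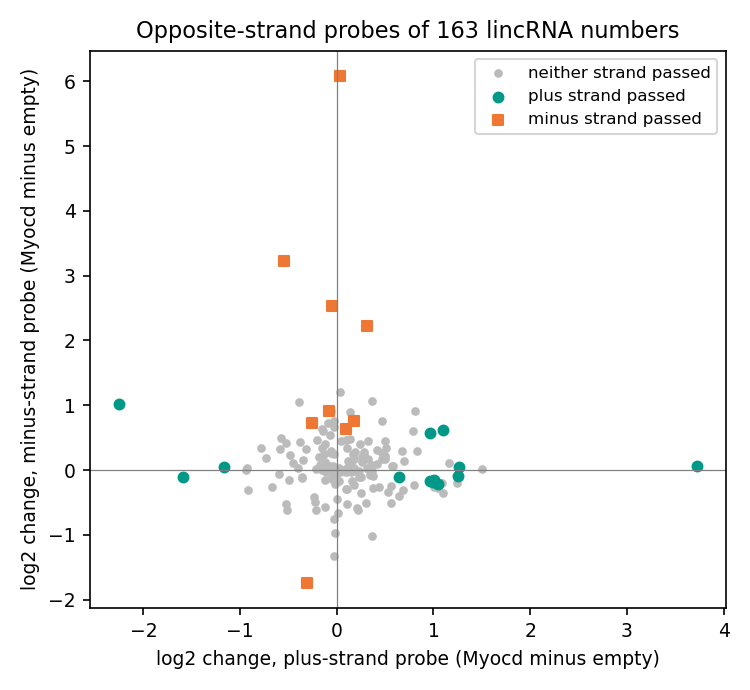
Change with Myocd (log2, Myocd minus empty) of the minus-strand probe (vertical axis) against that of the plus-strand probe (horizontal axis) for 163 long intergenic RNA numbers. Green circles and orange squares are pairs in which the plus or the minus probe passed. The partners of these 22, by selection probes that did not pass, changed by at most 1.02 in size, and 0 pairs passed on both.

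The aorta and liver arrays were not part of the Myocd comparison, and both lay on slide 2. They show where the responding probes stand in tissue rich in smooth muscle and in tissue poor in it. Of all tested probes with a value in both, 15.4% were at least 4-fold brighter in aorta than in liver and 11.5% were at least 4-fold brighter in liver. Among the probes that were higher with Myocd, 24.9% were at least 4-fold brighter in aorta and 11.1% in liver. Among those that were lower with Myocd, the shares were 28.2% and 9.65%. Both directions of the response thus held a larger share of aorta-bright probes than all tested probes did. With 1 array per tissue there is no test of these shares. The 2 tissue arrays were also unlike. Processed intensity had a 75th percentile of 364 in aorta and 165 in liver, and 68.9% and 62.2% of probes were well above background. Negative-control spots lay at a scaled level of -6.57 in aorta and -5.69 in liver, so the floor was higher in liver. How far this moved the shares was not tested.

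The share also varied with size and level. Of the 829 rises of at least 4-fold, 29.9% were aorta-bright and 13.8% liver-bright. Of the 182 falls of at least 4-fold, 19.8% were aorta-bright and 18.7% liver-bright. Among probes with an empty level over 2, 45.1% of the rises and 36.7% of the falls were aorta-bright, against 26.9% of all. At levels under -4 the shares were 14.6%, 14.4% and 7.42%. The excess over all tested probes therefore appeared at both ends of the scale. With normexp the shares were 15.3% of rises, 15.6% of falls and 6.95% of all probes. The size of the excess also depended on single empty arrays. Without empty replicate 2 the shares were 18.9% of rises and 33.1% of falls. Without empty replicate 1 they were 25.0% and 21.2%.

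**Figure D5:**
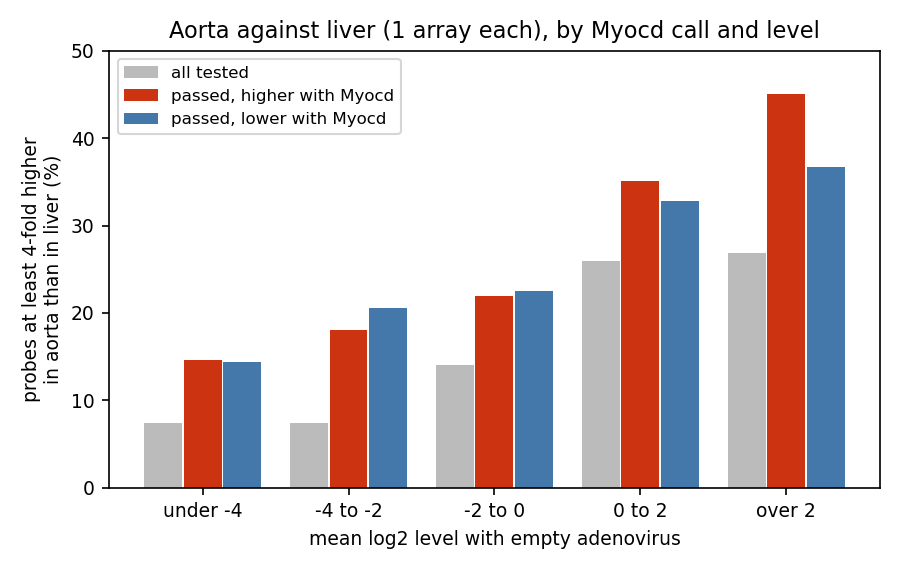
Share of probes at least 4-fold brighter in aorta than in liver (vertical axis, percent, 1 array each) by mean log2 level with empty adenovirus (horizontal axis), for all tested probes (grey) and those that passed as higher (red) or lower (blue) with Myocd. Red and blue exceed grey in each range, reaching 45.1% and 36.7% against 26.9% at levels over 2.

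Signal and background of the 4 arrays were close. Processed intensity had a 75th percentile of 456 to 495 on the empty arrays and 466 to 485 on the Myocd arrays, and 68.4% to 71.6% and 68.2% to 68.3% of probes were well above background. The 308 negative-control spots of an array, less any flagged as outliers, had a median processed intensity of 3.12 to 3.32 units on the empty arrays. On the Myocd arrays the median was 3.83 to 3.90. The part of this difference in the values of dim probes was not tested beyond the normexp analysis. The robust SD of the probe-wise difference between replicates was 0.43 for the empty pair, 0.22 for the Myocd pair and 0.22 for the knockout pair. The fit uses 1 spread for all 3 groups. No spot was saturated.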

How the data were processed

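RNA of 8 samples was labelled with Cy3 and hybridised to 1-colour Agilent arrays. The deposited processed intensity of each spot was made by the authors in Agilent Feature Extraction 11.0.1.1, per the file headers. A second deposited table gives the authors' log2 values. Its normalization is not stated in the sources read, and it served as an alternative. Outlier-flagged spots were left out, as were control spots and 15 probes (300 spots) named as negatives. Log2 intensities were reduced by the array's 75th percentile and averaged over the spots of a probe. A probe was tested where all arrays of at least 1 cultured group, the knockout group included, had it well above background. Of the tested probes, 738 were well above background on 0 of the 4 arrays compared and met the filter through the knockout arrays. Among these 738, 31 passed as higher and 32 as lower. Tests were run with limma 3.58.1 in R 4.3.3 (lmFit and eBayes, two-sided, Benjamini-Hochberg adjustment) over the 6 cultured arrays, which left 3 residual degrees of freedom. The number of arrays limits the precision. Normexp used the median foreground and background signals with an offset of 50, because no mean foreground signal was present.

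All genes with a symbol were named. Of probes with only an identifier, the 2 largest rises and 2 largest falls among those that passed and were well above background on all 4 arrays were named. The members and lists were chosen with earlier results of these data known. Alternatives were quantile, median and detected-probe scaling, normexp, the deposited log2 values, other filters on dim probes, other fits, a replicate block, keeping flagged spots, and leaving out each array. The array design is on mm9, and no probe coordinates are given.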

Additional observations from a re-analysis of the deposited data

Results flagged for a closer look

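Of 75 control and negative probes outside the main measurement, 2 read at least 1 log2 unit higher on both Myocd arrays than on either empty array. Other control spots, such as those of Pgk1 and the negative spots, were higher by less. DCP_20_7, with 2 spots per array, was at -4.62 and -5.82 with the empty virus and -2.96 and -2.79 with Myocd, a difference of 2.34 log2 units. DCP_20_9, also with 2 spots, was at -4.49 and -4.99 with the empty virus and -2.91 and -2.95 with Myocd, a difference of 1.81. In aorta and liver, on the slide of the Myocd arrays, the levels were -5.0 and -3.83 for the first and -4.80 and -3.77 for the second. Knockout cells were at -4.87 and -5.38 for the first and -5.05 and -4.45 for the second. The lowest signals counted as above background on the empty arrays were -5.10 and -4.89, so both probes were near the floor there and the differences are rough. How many tested probes meet the same rule was not counted.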

How the results depend on the processing

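The count of 6691 probes became 4211 with no filter on dim probes and 3910 with only the 4 arrays compared, and it ran from 2153 to 9211 when 1 array was left out, where a lone array was assumed to vary like the others. The 1011 changes of at least 4-fold became 406 with normexp and 556 with probes above background on all 6 cultured arrays, and ran from 931 to 1207 when 1 array was left out. Of the 5 identified genes, 1 passed with no filter on dim probes, with only the 4 arrays compared and with array weights, and 1 to 4 passed when 1 array was left out. Quantile normalization gave 3581 higher and 3806 lower probes, and the deposited log2 values 3401 and 3751. Over the named genes and probes, 327 values were recomputed, of which 40 lost the threshold, 6 gained it and 0 reversed. A reversal was counted only where at least 1 of the values compared passed. The fit with only the 4 arrays compared recurs when either knockout array is left out, so its values enter these counts repeatedly. Gapdh, Tuba1b, Ppia and B2m changed sign in some alternatives without passing in any. At least 99.9% of the probes that passed had the same direction under each setting. Dim probes and 2 arrays per group limit the sizes given.

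The labels do not say whether arrays with the same replicate number belong together, and the values cannot settle it. The deviations of same-numbered arrays correlated at -0.07 between empty and Myocd, -0.26 between empty and knockout and 0.09 between Myocd and knockout. With the replicate number as a block, 4388 probes and 1 identified gene passed.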

Other observations

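The maker's identifiers of most probes are running numbers, and probes with neighbouring numbers moved together. Of the 42908 tested probes whose identifier begins with ASMM10P, 8.06% were higher with Myocd and 7.33% lower. Where a higher probe had a tested neighbour with the next number, that neighbour was higher in 425 of 2646 cases (16.1%), and for lower probes the neighbour was lower in 357 of 2497 cases (14.3%). For rises of at least 4-fold the share was 65 of 624 (10.4%), against 1.90% of all these probes. The share of higher neighbours was 12.9% at a distance of 2 numbers, 8.38% at 10 and 8.18% at 1000. The correlation of changes was 0.13 at a distance of 1 over 32760 pairs, 0.08 at 2 and 0.0088 at 10. These are descriptions across probes that share the same 4 arrays. Left-out arrays moved the 16.1% to between 11.7% and 18.2%. What the order of the numbers stands for is not stated in the sources read.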
